A study of Homo sapiens with 24 samples.

Results

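N1-methyladenosine (m1A) peaks that recur across preparations of HEK293T cells, a human embryonic kidney line, are described here. Peaks of 10 deposited lists were merged wherever 1 nt or more was shared on a RefSeq transcript, and a region was kept when 7 or more of the 10 lists held a peak in it. Of 38299 merged regions, 719 met this rule (1.88%), on 718 transcripts. They belonged to 453 genes with a symbol, 4.86% of the 9319 genes with any region. For 11 regions the transcript matched no symbol in the gene table used. The lists themselves chose these regions, so their list counts, folds, pileups and summits are descriptions and were not tested.

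The study enriched fragments of polyA-selected RNA with an anti-m1A antibody (IP) in 5 conditions with 2 lists each. These were wild-type cells (WT), ALKBH3 knockout cells of the same line (KO), wild-type untreated controls of the stress experiment (UT), wild-type cells exposed for 30 min to 50 µM H2O2 (H2O2), and wild-type cells kept without serum for 16 h (Starve). In WT and KO, immunoprecipitated RNA was also treated with a demethylase. The labels do not say whether replicates were separate cultures, nor how many knockout clones were used, so spread between replicates may be technical. Sequencing depth is unknown, because the files hold peaks and scaled windows and no library totals.

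m1A carries a methyl group on the Watson-Crick face of adenine, which gives it a positive charge and blocks base pairing. Reverse transcriptase tends to stop or misread at it, and demethylase treatment removes that block. ALKBH3 is an enzyme that can remove the methyl group from RNA. In messenger RNA, m1A has been mapped mostly to 5′ leaders and the neighbourhood of start codons.

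Promoter sequences are shown for 5 of the genes whose region was in all 10 lists and had the highest fold in its weakest list. TUBB4A and GNAS, of the same group, also had promoter entries and are not shown. Sequences are from RefSeq on GRCh38.p14, 59 bases before the annotated gene start in lower case and the first transcribed base as the capital. The peak regions themselves lie downstream of these letters. SRSF7 is at chr2:38751494-38751553 on the minus strand, SRSF1 at chr17:58007246-58007305 on the minus strand, ATP6V0C at chr16:2513667-2513726 on the plus strand, SCARF2 at chr22:20437825-20437884 on the minus strand and GTF2IRD1 at chr7:74453847-74453906 on the plus strand.
SRSF7: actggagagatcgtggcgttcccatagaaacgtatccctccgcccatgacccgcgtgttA
SRSF1: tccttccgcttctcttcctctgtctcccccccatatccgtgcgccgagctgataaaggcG
ATP6V0C: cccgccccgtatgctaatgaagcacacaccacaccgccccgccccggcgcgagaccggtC
SCARF2: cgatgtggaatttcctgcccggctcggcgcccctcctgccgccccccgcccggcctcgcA
GTF2IRD1: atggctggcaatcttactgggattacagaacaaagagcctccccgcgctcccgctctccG

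Promoter entries were found for 370 of the 453 genes and for 7589 of the 9319 genes with any region. GC content over the 250 bases before the start had a median of 69.6% in the 370 genes (quartiles 62.1% and 75.6%) and 66.0% in the 7589 (quartiles 59.2% and 72.8%). Over the first 50 transcribed bases the medians were 72.0% and 68.0%. The first base was A in 45.7% of the 370 genes and in 44.5% of the 7589, and G in 39.2% and 42.1%. The letters GTTCNANNC, the T-loop motif of the TRMT6/TRMT61A methyltransferase, were searched on both strands of the 300-base windows and were present in 8.92% of the 370 promoters, 6.42% of the 7589 and 7.47% of all 27305 promoters in the table. None of the 5 promoters shown holds them. The transcripts themselves were not searched, so these shares describe promoter DNA only.

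Regions found in many lists lay close to transcript starts. The median summit over lists was within 300 nt of the start in 606 of the 719 regions, 84.3% (Wilson 95% interval 81.4% to 86.8%), against 26.4% of all merged regions (26.0% to 26.9%). These intervals cover counting error only, and regions on isoforms of 1 gene are not independent. With 1 region per gene the share was 83.0% of 453. The share was 16.6% in regions of 1 list, 36.5% in 2 lists, 59.0% in 3 and 76.5% in 4, and it lay between 80.1% and 86.5% in every class from 5 to 10 lists. No region of the 719 had its median summit in the first 60 nt, where 139 of the 38299 merged regions had theirs, and the lowest was at nt 68. The median summit was nt 147 (quartiles 118 and 222), against nt 1031 over all merged regions.

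**Figure D1:**
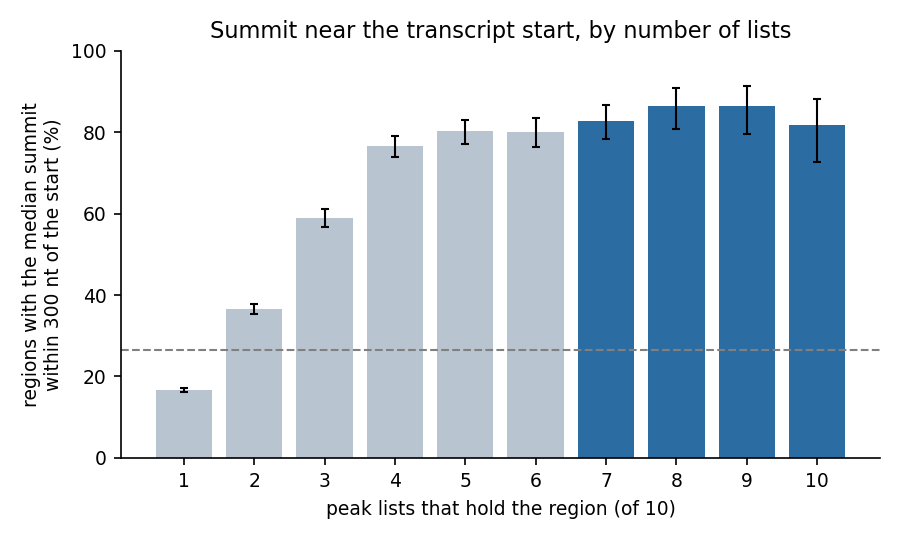
Share of regions (%) whose median summit lies within 300 nt of the transcript start, by the number of lists that hold the region; error bars are Wilson 95% intervals and the dashed line is the share over all 38299 merged regions. The 4 dark bars are the regions described here and lie between 81.7% and 86.5%, while regions of 1 list are at 16.6%.

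At the limit of the rule, 315 regions were in 7 lists and 503 were in 6. The summit was near the start in 82.9% of the former and 80.1% of the latter, the median pileup was 144 and 117, and the median fold was 4.88 and 4.39. Of the rest, 178 regions were in 8 lists, 133 in 9 and 93 in all 10. The transcripts of the 719 regions held 1395 further merged regions, of which 1099 were in 1 list.

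Among the 113 regions outside the first 300 nt, 95 had a summit between nt 301 and 1000 and 18 lay beyond nt 1000. UBB, which encodes polyubiquitin, was in all 10 lists with a median summit at nt 383.5 and a median fold of 5.97. EEF1A2, a translation elongation factor, was in 9 lists with its summit at nt 1773 and a median fold of 5.48. Both genes were chosen after their values were seen. In 3 regions, a pair on HLA-DQB1 and 1 on HLA-DRB4, the deposited positions were beyond nt 110000, which cannot be positions in those messenger RNAs. These 3 are counted among the 18, and their place is left unstated. Positions were not compared with transcript lengths, so others beyond the end of a transcript may remain, also among all merged regions.

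The region with the strongest pileup lay on 28S ribosomal RNA, the large structural RNA of the ribosome, between nt 663 and 1711 of the deposited sequence. Pileup at its summit ranged from 968016 in the first WT list to 2469564 in the second, with a median of 1577746. The WT lists gave it folds of 163 and 244, the KO lists 85.3 and 90.9, the UT lists 90.8 and 85.1, the H2O2 lists 63.3 and 63.1 and the Starve lists 75.8 and 68.1. The summit was at nt 1376 to 1383 in the WT and KO lists and at nt 1262 to 1266 in the UT, H2O2 and Starve lists, so the sets did not overlap. Ribosomal RNA was thus covered in these libraries although the RNA had been polyA-selected.

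Of the 11 regions without a symbol, 8 were in all 10 lists. NM_001190470 had a fold of 2398 in the first WT list and 82.0 to 215 in the other 9, with all summits between nt 933 and 938. NM_001190702 showed the same spread, 537 in the first WT list and 20.2 to 60.8 elsewhere, with summits between nt 986 and 995. In the second WT list the folds were 215 and 60.8. The fold in the first WT list was above that in all other lists in 5 of these 8 regions and in 21 of the 93 regions in all 10 lists.

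Splicing regulators were the best represented family in number. Of 126 splicing factor and hnRNP genes with any region, 14 had one in 7 or more lists (11.1%, beside 4.86% of all genes), and SRSF7, SRSF1, PRPF8 and HNRNPL were in all 10. The others were SRSF6, SRSF9, HNRNPD, HNRNPA0, PRPF31, SNRPB, SRSF3, LSM4, LSM12 and HNRNPAB. SRSF1, a serine/arginine-rich regulator of splice site choice, had folds of 15.9 and 5.83 in WT, 9.14 and 11.7 in KO, 15.2 and 10.6 in UT, 26.4 and 20.3 in H2O2, and 10.3 and 4.02 in Starve. Its pileup ran from 290 in the second UT list to 942 in the second WT list, and its summits lay between nt 184 and 218 in a region of nt 71 to 310. The highest fold was in the first H2O2 list and the lowest in the second Starve list. The 2 WT folds lay on either side of both KO folds. SRSF7, of the same protein family, had folds of 7.09 and 7.84 in WT, 4.30 and 6.07 in KO, 6.75 and 11.4 in UT, 5.82 and 4.32 in H2O2 and 12.6 and 10.8 in Starve. Its summits were at nt 222 to 231 in the 4 WT and KO lists and at nt 199 to 217 in the other 6.

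Autophagy and histone genes were also present. GABARAPL2 and MAP1LC3B are members of the ATG8 family that coats autophagosome membranes. With the lysosomal protease gene CTSA they made 3 of 24 autophagy and lysosome genes with a region (12.5%, beside 4.86% of all genes). GABARAPL2 was in all 10 lists, with folds of 7.22 and 6.92 in WT, 5.41 and 5.48 in KO, 6.87 and 4.67 in UT, 2.996 and 6.35 in H2O2 and 4.39 and 6.65 in Starve. MAP1LC3B was lacking in the second H2O2 list only, and its folds in the other 9 ran from 7.31 to 18.7 with a median of 8.78. Of 19 histone genes, 3 (15.8%) had such a region: H2AZ2, H3-3B and H1-10, which encode replacement and linker histones. H2AZ2 had folds of 5.27 and 8.49 in WT, 8.73 and 6.61 in KO, 12.6 and 24.9 in UT, 16.4 and 13.7 in H2O2 and 11.2 in the first Starve list, with no peak in the second.

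Genes of energy metabolism and translation were included as well. ATP5F1D, the delta subunit of mitochondrial ATP synthase, had the tightest summits of the 453 genes, between nt 136 and 139 in the 10 lists. Pileup at the summit reached 4001 and 6753 in WT, 4701 and 4005 in KO, 3340 and 2503 in UT, 3388 and 3115 in H2O2 and 3884 and 2539 in Starve. The fold was 10.5 and 10.4 in the WT lists and 8.21 and 7.04 in the KO lists, and the 6 lists of the stress experiment had folds of 2.84 to 4.50. EIF5A, a translation factor that carries hypusine, had folds from 2.71 in the first WT list to 7.81 in the first Starve list, with its summit between nt 164 and 182. Altogether 6 of 79 oxidative phosphorylation genes (7.59%) and 5 of 57 translation factors (8.77%) were included, beside 4.86% of all genes. For ribosomal protein genes it was 4 of 64 mitochondrial (6.25%) and 3 of 61 cytosolic (4.92%), the latter near the share of all genes. MRPS26, a protein of the small mitochondrial ribosomal subunit, was in all 10 lists with folds from 2.42 to 7.44. SLC25A1, the mitochondrial citrate carrier, had folds from 3.01 to 6.01 and was 1 of 7 solute carriers included out of 170 (4.12%).

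The remaining families were described by counts. Regions in 7 or more lists were present in 3 of 33 proteasome genes, 4 of 68 ubiquitin conjugation genes, 4 of 87 chromatin modifiers, 2 of 24 antioxidant genes, 1 of 5 genes of 14-3-3 proteins, 1 of 11 tubulins, 1 of 43 RAB genes, 1 of 62 chaperones and 5 of 189 zinc finger genes. None of 42 DDX and DHX helicases, 21 sterol synthesis genes or 40 genes for RNA methylation proteins had one. At the 4.86% of all genes, families this small would hold few such regions, so a count of 0 does not set them apart. Of 114 cell cycle and DNA replication genes, 6 (5.26%) had one. CCND3, a D-type cyclin, had folds from 4.07 to 7.82 in 9 lists, but CCN1 encodes a matricellular protein and CCNL2 a cyclin linked to splicing, and both are in this group by symbol pattern only. Only 1 marker gene of other cell types had any region, in fewer than 7 lists. These families were chosen with earlier results known and no enrichment was tested.

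The 10 genes with the highest fold in their weakest list, among those in all 10, held varied functions. SPRNP1, a pseudogene related to the shadow of prion gene, had folds from 7.52 in the second KO list to 34.6 in the second WT list. HEBP1, a haem-binding protein, had folds of 14.8 and 15.8 in WT, 7.94 and 7.02 in KO, 13.2 and 10.4 in UT, 8.61 and 17.1 in H2O2 and 12.4 and 5.94 in Starve. TUBB4A, a beta tubulin, ranged from 5.89 to 14.1. GTF2IRD1, a transcription factor gene, had its lowest folds in KO, 4.87 and 5.24, and folds of 10.8 to 16.8 in the remaining 8 lists. The KO lists also had the lowest median folds over the peaks of all regions described here, 4.36 and 4.23, against 4.54 to 6.9 elsewhere. How many regions share the order seen in GTF2IRD1 was not counted. ATP6V0C, the proteolipid subunit of the vacuolar proton pump, had the largest pileups of these genes, 4452 and 9013 in WT and 2998 to 5749 elsewhere. GNAS, the stimulatory G protein alpha subunit, had folds of 13.2 and 13.2 in WT and 3.90 to 6.44 in the other 8 lists. FAM50A ranged from 4.16 to 17.0 and SCARF2, a scavenger receptor gene, from 4.13 to 15.7. Folds are the authors' own values per peak and depend on each list's background, so these side-by-side values do not measure a change between conditions. MAPK3, the kinase ERK1, had folds of 19.0 to 41.2 in the UT, H2O2 and Starve lists, 22.9 and 4.95 in WT and 4.27 in the first KO list, and was lacking in the second.

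**Figure D2:**
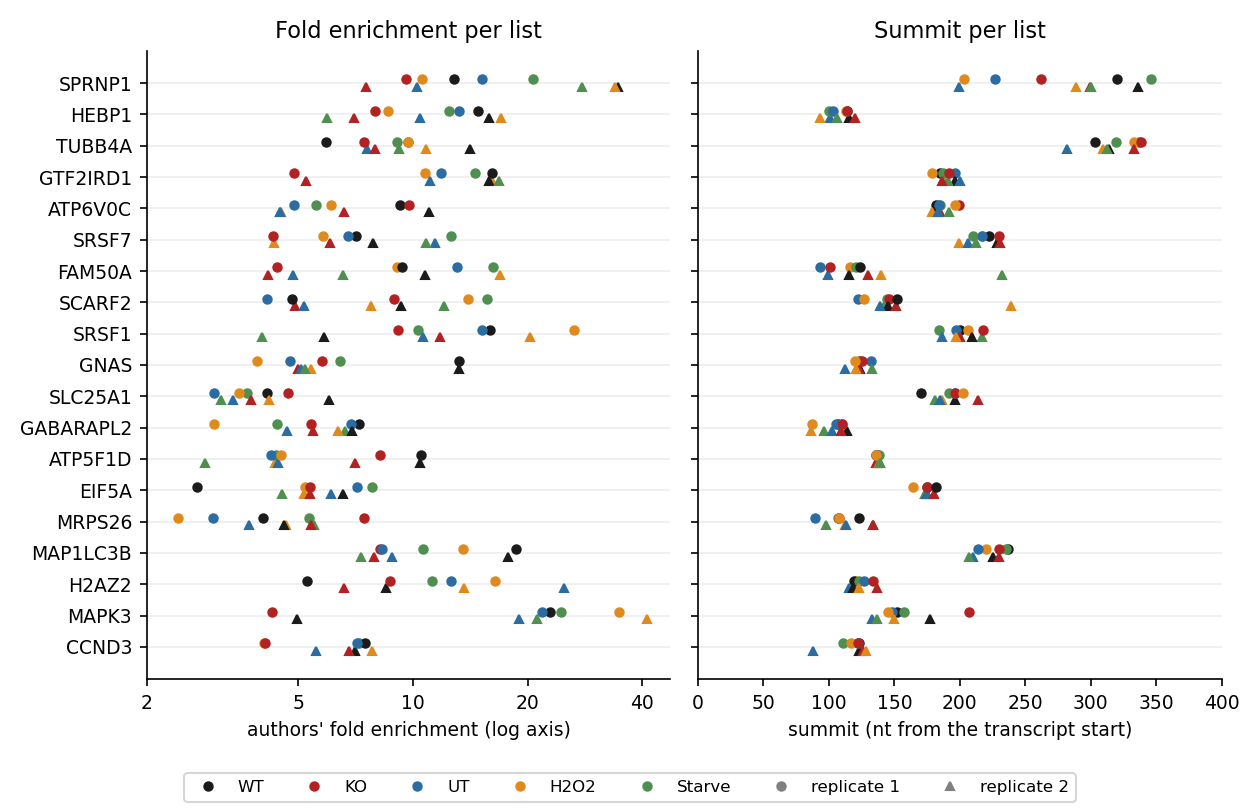
The authors' fold enrichment (left, log axis) and the summit in nt from the transcript start (right) in each of the 10 lists, for 19 genes; colours are conditions, circles and triangles the first and second replicate. ATP5F1D summits lie between nt 136 and 139, whereas GTF2IRD1 folds in KO (4.87 and 5.24) lie below its folds in the other lists. The KO lists also have the lowest median folds over the peaks of all regions described here (4.36 and 4.23).

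No list held every region. The first WT list held 481 of the 719 and the second 679, KO 585 and 560, UT 593 and 580, H2O2 599 and 492, and Starve 635 and 552. The WT lists were the shortest and second shortest, 2175 and 3410 peaks, and yet the second held the most of these regions. Starve 1 was the longest, with 11362 peaks. Of all peaks in a list, these regions made up 22.2% and 20.1% for WT and 17.0% and 16.3% for KO, and from 5.76% to 13.2% for the 6 lists of the stress experiment. Ranked within each list, their fold had a median percentile from 76.6 in the second WT list down to 43.3 in the second H2O2 list and 35.8 in the second Starve list, but their pileup had one from 67.2 to 94.8 in all 10. In the second H2O2 and Starve lists these regions were thus below the middle of the list by fold and above it by pileup.

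**Figure D3:**
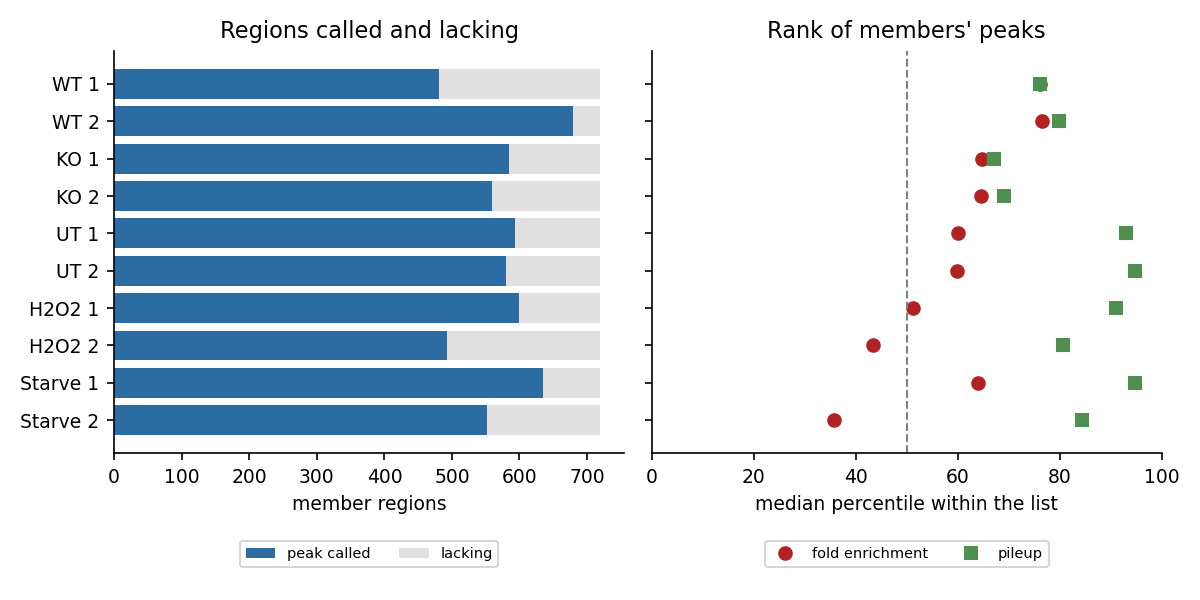
Left, how many of the 719 regions each list held (blue) or lacked (grey). Right, the median percentile of these regions' peaks within each list by fold enrichment (circles) and by pileup (squares), with the dashed line at 50; pileup percentiles lie between 67.2 and 94.8, while fold falls to 35.8 in the second Starve list.

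A peak in every condition was present in 504 of the 719 regions, and 215 lacked both lists of at least 1 condition, so the word constitutive holds only for part of the set. Both KO lists were lacking in 85 regions of 51 genes, both UT lists in 40 of 22 genes and both H2O2 lists in 39 of 27 genes. Both WT lists were lacking in 27 regions of 24 genes and both Starve lists in 24 of 16 genes. Matching shares over all merged regions were not computed, so these counts do not show a loss of regions in any condition. Taken singly, the KO lists lacked 134 and 159 of the regions, the UT lists 126 and 139 and the H2O2 lists 120 and 227. The WT lists lacked 238 and 40 and the Starve lists 84 and 167. The KO lists were also the most alike of the replicate pairs in pileup rank, and the part of this in the counts was not tested. Among regions in 9 lists, the missing list was most often the first WT list (30 regions), the second H2O2 list (29) or the second Starve list (20). NECTIN3, a cell adhesion protein, was in every list but the 2 of KO, with folds of 8.19 and 9.65 in WT and 7.17 to 31.1 in the stress experiment. NANS, which makes sialic acid, was lacking in WT alone, with folds of 4.68 and 3.92 in KO. MRPL10, of the large mitochondrial ribosomal subunit, lacked both UT lists, CDK2AP2 both H2O2 lists and KDELR2, the receptor that returns proteins to the endoplasmic reticulum, both Starve lists. A lacking peak shows only that none passed the authors' caller in that list.

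Summits of a region lay close together in most lists. The range of summits over a region's lists had a median of 54 nt and ran from 3 to 577 nt. In 32 regions it was 20 nt or less and in 203 more than 100 nt. Between replicates the median distance was 12 nt in WT, 6 in KO, 12 in UT, 16 in H2O2 and 19 in Starve. Between lists of different conditions the 40 medians lay between 11 and 25 nt. In regions of fewer than 7 lists, the replicate medians were 10 to 32 nt. YBX1, a cold-shock RNA-binding protein, had summits at nt 145 to 151 in 9 lists, and H1-10 at nt 251 to 261 in 8. At the other end MARCHF9, a ubiquitin ligase gene, had summits at nt 130 and 108 in WT, 556 in UT, 278 and 576 in H2O2 and 685 and 381 in Starve. CPSF6, of the polyadenylation machinery, ranged from nt 107 to 648, and LOC642361 had 7 summits at nt 76 to 114 and 1 at nt 520. In 77 regions a list held more than 1 peak. Wide ranges were not confined to these, since 148 of the 642 regions with 1 peak per list had a range of more than 100 nt. Whether wide ranges join separate peaks was not tested.

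Summits in the WT and KO lists lay slightly further from the start than in the lists of the stress experiment. Over the 719 regions the difference of medians was 12 nt (quartiles 0.25 and 25.5). It was towards the 3′ side in 539 regions and towards the 5′ side in 174. This difference was not computed for the other merged regions, so it is not shown to be particular to the 719. Of 93 regions in all 10 lists, SRSF7, HEBP1, TFDP1, MZT2B, CSNK1E, CARM1 and 28S ribosomal RNA had every WT and KO summit beyond every other summit, and ANP32B the reverse. These 7 and 1 were chosen by their values. Within an experiment the shift was smaller, a median of 3 nt for KO minus WT (331 regions in all 4 lists), 2 nt for H2O2 minus UT (296) and 2 nt for Starve minus UT (343), and the last 2 share the UT lists. In regions of fewer than 7 lists these medians were 2.5 nt (161 regions), 5.5 nt (63) and 3.5 nt (110).

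Pileup ranks were more alike between lists than fold ranks in each of the 45 pairs of lists. Over the regions that both lists of a pair held, Spearman's rho between replicates was 0.642 to 0.960 for pileup and 0.513 to 0.836 for fold. Between conditions it was 0.570 to 0.769 for pileup and 0.0891 to 0.528 for fold. These correlations are across regions of the same libraries, share the transcripts' abundance and carry no p.

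Demethylase-treated and IP coverage were then compared in windows of 10 nt every 5 nt, the only readout here that used libraries outside the rule. The treated columns of the 2 replicates of a genotype proved to be 1 profile: their ratio was constant to within 0.001% in 776 of 776 KO regions and 351 of 351 WT regions with 10 or more shared windows, whereas no IP pair had a constant ratio. Treated coverage was therefore counted as 1 sample per genotype and IP as 2, and the treated sample was assumed to vary like the IP samples. All p-values rest on the spread of the IP pairs alone, so they compare these libraries and not the conditions. Windows are scaled within each region, so they show the shape of coverage and not its amount. The window files held 421 and 427 of the 719 regions in WT and 467 in each KO replicate.

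In KO, none of 24783 windows passed limma's moderated test at an adjusted p under 0.05 (0.00% in either direction), and so none of 7343 windows in 220 regions of 154 genes described here. At an unadjusted p under 0.05 there were 4286 and 1154. In WT, none of 11367 windows passed limma's test (0.00%), and none of 6819 windows in 210 regions, with 2586 and 1268 at an unadjusted p under 0.05. The WT count of 0 depended on the settings: limma called 243 of the 6819 windows with a pseudocount of 0.1 in place of 0.5, and 567 of 6997 when coverage was rescaled over shared windows. Without the first or the second WT replicate it called 261 of 2621 and 190 of 2353, but those fits hold 1 IP and 1 treated profile in WT, take their spread from the KO IP pair and cover the windows shared with KO, so their counts cannot be set against the 0.

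Treated minus IP was described by distance from the summit, and KO and WT were not compared by class. On the log2(coverage + 0.5) scale, the median difference of treated minus IP in KO stayed between -0.06 and 0.09 in each distance class. In WT it was 0.40 more than 100 nt upstream of the summit (182 windows of 33 regions), 0.06 within 20 nt, -0.25 between 60 and 100 nt downstream (591 windows of 119 regions) and 0.02 beyond 100 nt downstream, where KO had 0.06. Over all WT windows these 4 classes had 0.43, 0.06, -0.22 and 0.07. Treated coverage was listed at 0 in 12.6% of these regions' windows in WT and 6.41% in KO, beside 15.1% and 7.69% of all windows and 3.82% to 6.31% of these regions' windows in the IP libraries, and the part of these empty windows in the differences was not tested.

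The centre of coverage, the mean position weighted by coverage over the stretch both replicates held, gave 1 value per region and library. That stretch differs between KO and WT, so positions are compared within a genotype only. In KO the treated centre lay 10 nt or more towards the 5′ side of both IP centres in 60 of 467 regions (12.8%, beside 11.8% of all 2090 regions in the files) and as far towards the 3′ side in 37 (7.92%, beside 11.0%). In WT the counts were 94 of 421 (22.3%, beside 22.0% of 796) and 53 (12.6%, beside 16.1%). The 5′ shares were thus near the background. CARM1, an arginine methyltransferase, had its treated centre at nt 163 and IP centres at nt 196 and 197 in KO, and at nt 142 against 165 and 175 in WT, towards the 5′ side in both. ZFAND3 had 323 against 372 and 365 in KO, and 318 against 344 and 329 in WT. KPNB1, a nuclear import receptor, had 260 against 303 and 301 in KO but 257 against 248 and 253 in WT. MEX3D went towards the 3′ side in both, with 370 against 342 and 337 in KO and 332 against 327 and 302 in WT. These genes and the limit of 10 nt were chosen after the data were seen. Of 264 regions measured in both genotypes, the treated centre lay towards the 5′ side of the mean IP centre in both in 79, towards the 3′ side in both in 65, and on opposite sides in 120.

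The difference of treated minus IP between KO and WT was tested in the 2509 windows that all 4 files held. It was higher in KO in 63 windows (2.51%) and lower in 12 (0.478%). Of the 1933 windows in the regions described here, 53 were higher, in 11 regions, and 4 lower, in 2 regions. Neighbouring windows overlap, and NSMF and SLIRP entered with several isoforms each, so these windows and regions are not independent. The 7 genes named next were chosen after their values were seen. All calls were lost when any 1 of the 4 IP libraries was left out.

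STK40, a kinase-like gene, had the strongest of these differences for a whole region, with 10 of 22 windows called between nt 46 and 155. In its window of nt 126 to 135 coverage was 10.2 treated against 10.8 and 10.6 in IP in KO, and 0 treated against 11.1 and 8.75 in IP in WT. The WT treated profile of this region held a single value other than 0 and was at 0 in 11 of the 22 windows, a profile with very few steps. NSMF, a neuronal signalling factor gene, was similar: at nt 111 to 120 its treated coverage was 2.32 in KO and 0 in WT, IP coverage was 3.22 and 3.63 in KO and 7.64 and 7.20 in WT, and the WT treated profile held 2 values other than 0 and was at 0 in 22 of 29 windows. On another NSMF transcript, 1 window of nt 156 to 165 went the other way: treated coverage was 0.588 in KO and 31.6 in WT, IP coverage was 3.30 and 1.93 in KO and 2.25 and 4.08 in WT, and the log2 difference was -4.66 (SE 0.62, limma adjusted p 0.0393). The WT treated profile there also held 2 values other than 0 and was at 0 in 22 of 28 windows. CCN1 had fuller profiles, with 19 treated values in WT and none at 0. At nt 166 to 175 its treated coverage was 1.81 in KO and 11.3 in WT, and IP coverage was 6.62 and 6.22 in KO and 3.06 and 2.26 in WT, a log2 difference of -3.50 (SE 0.33, limma adjusted p 0.0244). Its treated centre was at nt 107 and 106 in KO and WT, and its IP centres were at nt 152 and 147 in KO and at 97.3 and 91.7 in WT. Those centres cover nt 1 to 265 in KO and nt 1 to 185 in WT and are not comparable between the genotypes. IGSF8, an immunoglobulin superfamily gene, had treated coverage of 10.9 in KO and 0.734 in WT at nt 136 to 145, IP coverage of 5.33 and 6.10 in KO and 5.56 and 5.90 in WT, and a log2 difference of 3.21 (SE 0.27, limma adjusted p 0.0244). For SLIRP, PSMB4 and CHASERR the WT treated coverage was listed at 0 in the called window with the lowest p.

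**Figure D4:**
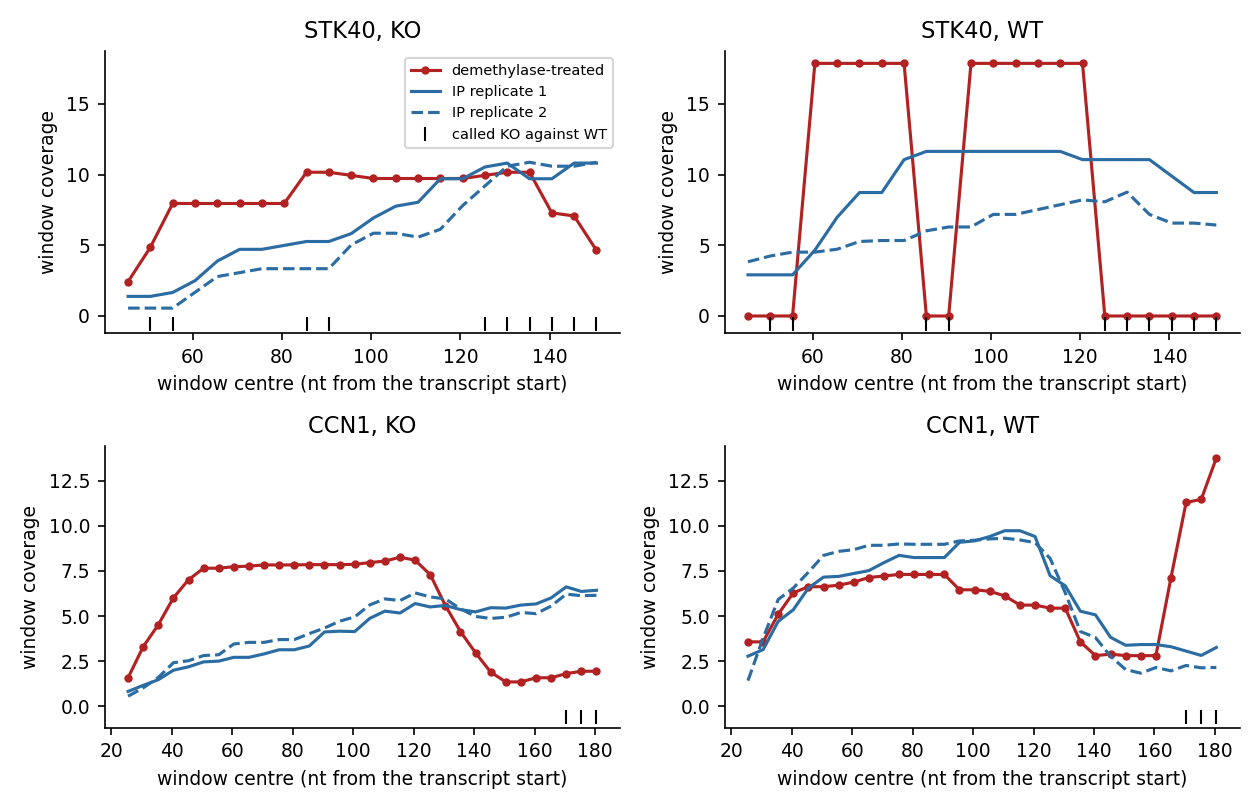
Scaled window coverage along the transcript for STK40 (top) and CCN1 (bottom) in KO (left) and WT (right): demethylase-treated (red, 1 profile per genotype), IP replicates 1 and 2 (blue, solid and dashed), and windows called different between KO and WT (black ticks below 0, not a coverage value). STK40 treated coverage in WT takes a single value or 0, while CCN1 treated coverage rises at its 3′ side in WT to 11.3 at nt 166 to 175.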

How the data were processed

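m1A immunoprecipitation of polyA RNA (40 µg from 2.5 mg total RNA; reverse transcription at 0.2 mM dNTP, per the labels' protocols) gave 10 peak lists and 4 window files from a series of 24 libraries in 12 groups of 2. Per the submitters' processing notes, Trim Galore, HISAT, MACS2 and hg19 were used; versions, controls and roles are not given in the sources used here. Peak positions are on RefSeq transcripts. Pileup is a signal without visible normalization, per the file headers; fold enrichment is a ratio and the q-value a −log10 value, both as deposited. The window files hold coverage that the authors scaled so that a region's windows sum to about 200. Each region's windows start 50 nt before a peak.

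Merging, counts and Wilson intervals used Python 3.11.15 with pandas 2.3.3 and scipy 1.17.1. Where a list held several peaks in a region, the one with the highest pileup was used. Window coverage was tested as log2(coverage + 0.5), mean coverage 1 or more, with limma 3.58.1 (R 4.3.3, variance trend, Benjamini-Hochberg adjustment over all windows). A design with 2 treated replicates had been set, but the treated columns were 1 profile and were counted once. Peak merging and the fit of the difference between KO and WT were tested on simulated data. The fits within KO and WT, the summits and the centres of coverage were not. The simulated windows were independent with the same noise level throughout, unlike the overlapping windows and sparse treated profiles of the data. The simulation thus does not cover those. Transcripts were matched to RefSeq symbols for 17019 of 17315. Untreated lists were taken by file name, although the descriptions of those samples point to starvation lists. No genome was used, so no transcript sequence was searched.

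The regions, gene families and limits were chosen with earlier results of these data known. Named genes were the 10 in the most lists with the highest lowest fold, up to 12 from the families, the 3 tightest and 3 widest summit ranges, 1 gene per condition lacking both its lists, and the strongest pileup; a rule for called windows named none. One gene with called windows is counted but not reported here by name. Alternatives were overlap, peak thresholds, number of lists, equal list length, 1 transcript per gene, each list left out, pseudocount, filter, variance trend, scaling and each replicate left out.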

Additional observations from a re-analysis of the deposited data

Results flagged for a closer look

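By the interaction test, treated minus IP coverage differed between KO and WT in windows of these regions (limma, adjusted p under 0.05). Of 1933 windows, 53 were higher and 4 lower in KO, beside 63 (2.51%) and 12 (0.478%) of all 2509 windows tested. Most of the windows tested lay in these regions. The calls did not hold when any 1 of the 4 IP libraries was left out, where fewer IP libraries estimate the spread. For the genes reported here, the log2 differences, KO minus WT, at the window with the lowest p were 4.30 in STK40, 3.65 in PSMB4, 3.55 in SLIRP, 3.51 in NSMF, 3.47 in CHASERR, 3.21 in IGSF8 and -3.50 in CCN1. NSMF also had 1 window that was lower in KO, with a log2 difference of -4.66 on another transcript. In STK40, PSMB4, SLIRP, NSMF and CHASERR the WT treated coverage was at 0 in the window with the lowest p, so the size depends on the pseudocount and is no fold change. Each genotype has 1 treated profile, and the spread is that of the IP pairs. No group had 4 samples or more, so single samples were not screened as outliers.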

How the results depend on the processing

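No paired analysis was possible because the treated coverage of a genotype is 1 profile, which cannot be paired with 2 IP replicates. The number of regions (719) and of genes (453) was 213 and 128 with peaks of 4-fold or more, 110 and 64 with equal list lengths (2175 top peaks by fold), 1222 and 756 with 6 or more lists and 404 and 257 with 8 or more. With 1 transcript per gene 454 regions were left. Leaving out 1 list and asking for 7 of 9 gave 431 to 566 regions and 282 to 355 genes, lowest without the second WT list (431 and 282), then without the first Starve list (463 and 292). The share near the start was 86.9% with 4-fold peaks, 89.1% with equal list lengths and 82.7% to 86.8% with a list left out. It stayed above the share over all merged regions in each of these.

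Member windows called in WT went from 0 to 243 with a pseudocount of 0.1 and 567 with rescaling over shared windows (chosen after seeing the data). With a WT replicate left out they were 190 of 2353 to 261 of 2621. Those fits are on other windows, take their spread from the KO IP pair and cannot be set against the 0. In KO the member windows called were 0 under each alternative that kept both KO replicates. The fits with a KO replicate left out are likewise on other windows (2328 and 2586, beside 7343) and take their spread from the WT IP pair. They cannot be set against the 0 in KO either. The 57 called between KO and WT became 113 with a pseudocount of 0.1, 32 with 1, 37 without a filter, 121 with rescaling and 0 with any replicate left out, where fewer IP libraries estimate the spread. The cause of the other changes was not tested. Depth is unknown, so no floor can be set for a lacking peak.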
